A study of Mus musculus with 6 samples.

Results

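The genes described here are 45 mouse genes of the lysosome and of autophagy. They were chosen by name for their known place in the pathway with no measured value in the rule, but with earlier results of these data known. They comprise 7 lysosomal membrane proteins, 13 soluble hydrolases and other luminal proteins, 8 cathepsins, 4 subunits of the proton pump V-ATPase, the transcription factors TFEB and TFE3, and 11 autophagy genes. A probe set of their own was found for 44 of the 45, out of 18193 genes measured, and Cd63 was not analysed here. The cells were Ba/F3, a mouse pro-B cell line that needs interleukin-3 to grow. All of them carried SPAG9-JAK2, a fusion of the scaffold protein SPAG9 with the tyrosine kinase JAK2, delivered by retrovirus under a doxycycline-dependent (Tet-on) promoter. In the induced group 3 cultures received 500 ng/ml doxycycline, in the uninduced group 3 cultures received none, and RNA was taken after 48 hours and hybridised to 1 Affymetrix mouse 3′ expression array per culture. The comparison asks which genes differ once the fusion is made. No array held cells that received doxycycline without carrying the fusion, so doxycycline and the fusion cannot be told apart, and no source used here says whether the medium held interleukin-3.

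Lysosomes are acidic compartments in which proteins, lipids and sugars are broken down. Their limiting membrane is lined by heavily glycosylated proteins such as LAMP1, the V-ATPase pumps protons in, and many hydrolases work in the lumen. In autophagy a new membrane closes around cytoplasm and fuses with the lysosome, so the same compartment ends both routes. The transcription factors TFEB, TFE3 and MITF bind a palindromic E-box element in the promoters of many lysosomal genes and are held in the cytoplasm by the growth-sensing kinase complex mTORC1. In blood cells the lysosomal system is especially rich in macrophages and granulocytes.

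Each array gave a signal for 45101 probe sets, in arbitrary units, with the same trimmed mean of 500 on every array. Median signals ran from 46.3 to 63.8, the highest being uninduced replicate 1. For 55.6% of all genes uninduced replicate 1 lay nearer to the induced mean than to uninduced replicates 2 and 3. For 40.0% it lay inside the induced range. These shares were not computed for the other uninduced arrays, so they do not show by themselves that it stood apart. It was the array whose removal changed the results most. Without it 1453 genes (7.99%) passed the test described below, against 34 on all 6 arrays and at most 12 without any other array. Results are therefore given with and without it. The endogenous genes of the fusion partners were not higher in induced cells, with Jak2 signals of 1430, 1740 and 1600 in induced and 1175, 3439 and 3081 in uninduced cells, and Spag9 signals of 2219, 1667 and 1938 in induced and 2222, 4702 and 4660 in uninduced cells. No source used here says whether these mouse 3′ probes can bind the RNA of the fusion, so they check no label. Of 12 measured B-lineage markers 9, among them Cd79a, Ebf1 and Rag1, had a mean log2(signal + 16) under 6.15 in both groups. That level is the 90th percentile of 26 liver and brain genes that blood cells do not use, whose median was 5.31. Of the other B-lineage markers Cd79b was clearly above it, with signals from 293 to 424. Igll1 (6.26 in induced cells) and Pax5 (6.33 in uninduced cells) passed it narrowly in 1 group. The interleukin-3 receptor chains Il3ra and Csf2rb and the leukocyte gene Ptprc gave far more signal than the 9. The 7 markers of an interleukin-3-dependent blood line had a median log2 difference, induced minus uninduced, of -0.57, with 5 negative. Of these, 3 were lower without overlap (13.4% of all genes) and 0 passed the test (0.187% of all genes). Ptprc stood at -0.52, Il3ra at -0.73 and Csf2rb at 0.70. Kit, of the same list, was as dim as liver and brain genes in both groups.

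Before the expression values, the promoters show which members carry the element that TFEB-type factors bind. RefSeq promoter windows on GRCm38.p6, from 250 bases before to 50 after a start, were held for 38 of the 45 members. Some genes had several starts, giving 44 windows, and a gene was counted if any of its windows held the element. The 6-letter core CACGTG, which reads the same on both strands, was found in 14 of the 38 (36.8%) and in 8.09% of the 27025 genes with such a window. The 8-letter form TCACGTGA, also a palindrome and counted within the first, was found in 7 of the 38 (18.4%) and in 1.13% of all genes. The 12 stretches below hold the element in 12 of these 14 members and are shown so that it can be set beside their values. The first 6 are from genes that were lower in every induced array, the next 4 from genes whose groups overlapped, and the last 2, Atg5 and Ctsl, from genes that were higher in every induced array. Cln3, whose groups overlapped, and Atg7, lower in every induced array, hold it as well and are not printed. In Ctsa and Cln3 the element lies at a start inside the gene, and the window at the gene's edge holds none. The only windows of Atg7, Atp6v1a and Ctsl also lie inside the gene, and the Atg5 element lies just inside the gene's edge. The stretches run 5′ to 3′ on the gene's own strand, with the element in capitals.

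Lamp1 (chr8:13159080-13159160, + strand): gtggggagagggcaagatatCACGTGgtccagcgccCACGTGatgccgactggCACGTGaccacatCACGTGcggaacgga

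Glb1 (chr9:114401010-114401055, + strand): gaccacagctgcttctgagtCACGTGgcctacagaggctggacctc

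Gaa (chr11:119267803-119267848, + strand): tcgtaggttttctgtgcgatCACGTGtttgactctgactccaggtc

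Naglu (chr11:101070001-101070046, + strand): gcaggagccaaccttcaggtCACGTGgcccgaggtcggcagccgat

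Mcoln1 (chr8:3500454-3500499, + strand): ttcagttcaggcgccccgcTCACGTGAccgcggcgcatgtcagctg

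Atp6v0d1 (chr8:105566061-105566087, - strand): gagccaggccctactgcggTCACGTGA

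Ctsa (chr2:164833741-164833772, + strand): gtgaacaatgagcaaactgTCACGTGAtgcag

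Ctsd (chr7:142387900-142387945, - strand): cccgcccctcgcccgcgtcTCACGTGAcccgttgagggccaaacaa

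Gla (chrX:134601174-134601219, - strand): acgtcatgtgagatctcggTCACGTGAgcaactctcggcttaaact

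Atp6v1a (chr16:44139365-44139410, - strand): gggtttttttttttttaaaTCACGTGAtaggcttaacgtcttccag

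Atg5 (chr10:44268305-44268338, + strand): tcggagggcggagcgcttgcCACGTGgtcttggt

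Ctsl (chr13:64370731-64370770, - strand): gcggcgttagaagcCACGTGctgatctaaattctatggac

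The Lamp1 stretch holds 4 copies of the core, the farthest 61 and the nearest 15 bases before the start, more than in any other of the 38. The Glb1 copy lies 48, the Naglu copy 73 and the Gaa copy 140 bases upstream. Mcoln1 has a second copy 71 bases upstream beside the 8-letter form shown, which lies 45 bases upstream, and the Atp6v0d1 copy lies 3 bases before the start. Ctsd, Gla and Ctsa, whose groups overlapped, hold a second copy as well. It lies 245 bases upstream in Ctsd, 227 bases upstream in Gla and 5 bases after the start in Ctsa. Cln3, not printed, holds 2 copies too. A match of letters is a description of the window and does not show that a factor binds there.

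Most lysosomal and autophagy genes gave lower mean signals in induced than in uninduced cells. A negative difference was found for 34 of the 44 members and a positive one for 10, against 55.9% negative among all genes. Differences are means of log2(signal + 16) in induced minus uninduced cells; with 16 added, dim genes show less change than they had. Their median was -0.52 over the members and -0.06 over all genes. No member passed the test across all genes (limma, Benjamini-Hochberg adjusted p under 0.05), which 34 genes or 0.187% passed, 13 lower (0.0715%) and 21 higher (0.115%); the smallest adjusted p of a member was 0.0897, for Lamp1. At an unadjusted p under 0.05 there were 18 lower and 2 higher members, where 10.3% and 7.14% of all genes lay. In 19 members every induced array was below every uninduced array, and in 3 every induced array was above, against 13.4% and 10.7% of all genes. The members were brighter than most genes, with a median level of 10.69 as log2(signal + 16) against 6.88. With limma fitted to the 9097 genes at or above the median level, 2896 had an unadjusted p under 0.05, against 3171 of all 18193. The shares of all genes, here and below, are not matched for signal level. Centring each array on its median moved the median of all genes by 0.16, to 0.10. It adds the same amount to every gene's difference, so no gene's distance from the median of all genes changed. The members' median was then -0.37, 30 were negative, and 7 were lower and 4 higher without overlap (7.01% and 19.7% of all genes), while the calls over all genes were 7 lower (0.0385%) and 25 higher (0.137%).

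**Figure D1:**
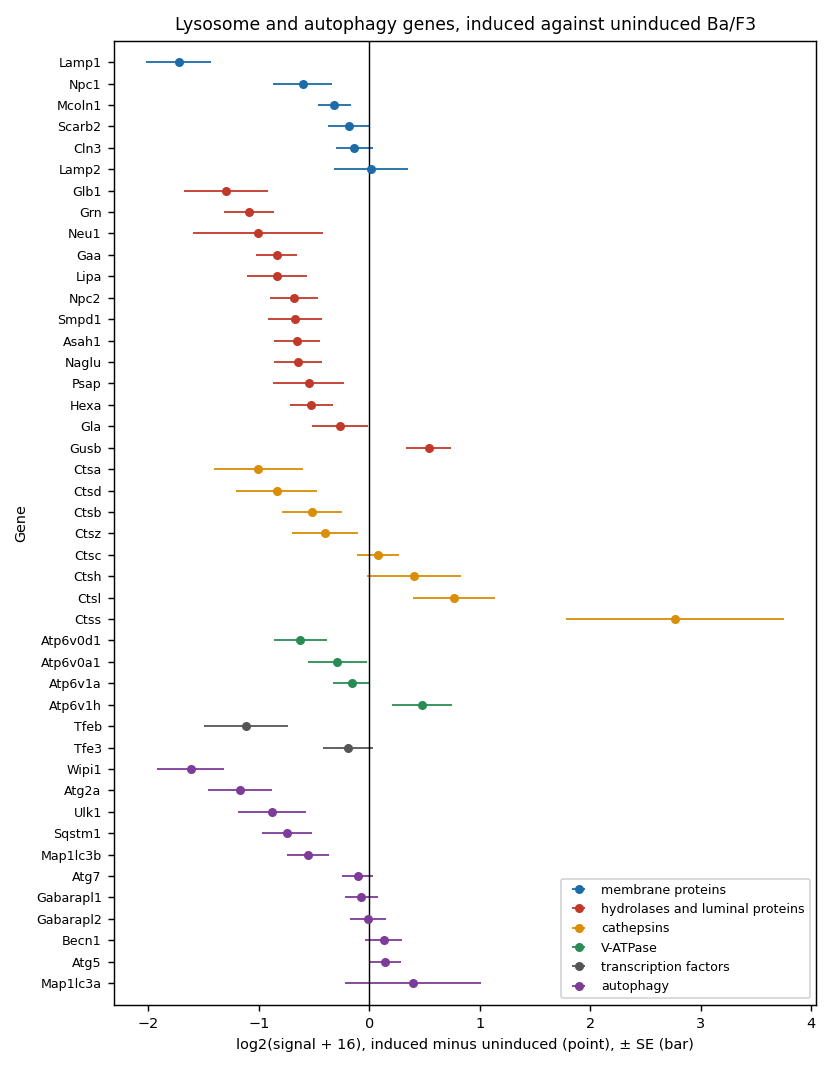
Difference between induced and uninduced cells for each of the 44 measured members, grouped by function. Points are limma differences of log2(signal + 16) with n = 3 arrays a group and bars are standard errors. Most points lie left of 0, from -1.72 for Lamp1, while Ctss at 2.77 has the widest bar.

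Without uninduced replicate 1 the count of called members went from 0 to 15, with 14 lower and 1 higher, while the call over all genes went from 34 to 1453 (7.99%, with 4.77% lower and 3.22% higher). The 14 were Lamp1, Gaa, Glb1, Hexa, Asah1, Smpd1, Lipa, Npc2, Grn, Ctsa, Ctsd, Wipi1, Ulk1 and Map1lc3b, and the 1 higher was Gusb. The members' median was then -0.69. Uninduced replicate 1 lay below both other uninduced arrays in 31 members and above both in 9, against 34.2% and 46.9% of all genes. In 28 of the 44 it was nearer to the induced mean than to its own group, and in 14 it lay within the induced range. Within the arrays numbered 1 the median difference was -0.21, and within those numbered 2 and 3 it was -0.55. The direction was therefore the same in both sets of arrays for the median of the members, and the size was not. In RNA from whole cultures, fewer cells of one kind and less RNA per cell cannot be told apart.

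**Figure D2:**
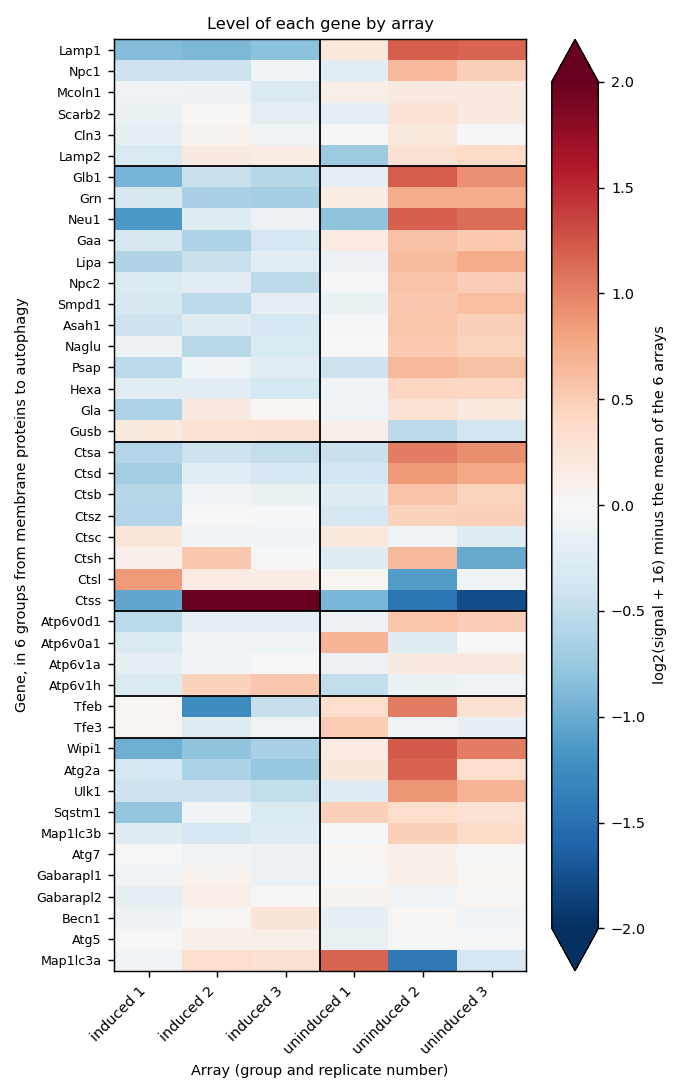
Level of each member on each of the 6 arrays as log2(signal + 16) minus that gene's mean over the arrays, red for higher and blue for lower; values beyond 2 in either direction take the end colour. Uninduced replicates 2 and 3 are the reddest columns, uninduced replicate 1 is paler for most hydrolases, and Ctss is high in induced replicates 2 and 3 alone.

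Among the membrane proteins the difference was concentrated in Lamp1, a major glycoprotein of the lysosomal membrane. Lamp1 (chr8:13159161-13175338, GRCm38.p6) gave signals of 5034, 4912 and 5158 in induced replicates 1, 2 and 3 and of 10558, 21289 and 20633 in uninduced replicates 1, 2 and 3, and signals are listed in that order throughout. The induced arrays were almost level with each other and below every uninduced array, and uninduced replicate 1 lay between the groups. On the log2 scale induced cells stood at 12.30 ± 0.04 and uninduced cells at 14.03 ± 0.57 (mean ± SD, n = 3), a difference of -1.72 ± 0.30 (SE; 3.31-fold lower, adjusted p = 0.0897), and -2.05 without uninduced replicate 1 (adjusted p = 0.0132). Lamp1 was the member with the largest negative difference.

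Npc1, the membrane carrier that moves cholesterol out of the lysosome, gave 185, 185 and 238 in induced and 213, 405 and 359 in uninduced cells. Uninduced replicate 1 lay within the induced range and the other 2 uninduced arrays above all induced ones, and the difference was -0.60 ± 0.27 (SE, adjusted p = 0.311). Mcoln1, the lysosomal calcium channel mucolipin 1, gave 558, 547 and 478 against 641, 667 and 672. Its groups did not overlap but lay close, with a difference of -0.32 ± 0.15 (SE). Scarb2, the receptor that carries glucocerebrosidase to the lysosome, gave 1319, 1464 and 1273 against 1262, 1757 and 1642, with overlap. Cln3, a membrane protein lost in a childhood neuronal storage disease, stood at -0.14, and at 0.02 after either rescaling of the arrays (median centring or quantile normalization). Lamp2, the close relative of Lamp1 that also serves chaperone-mediated autophagy, stood at 0.01 ± 0.34 (SE), and its 3 other probe sets at or above the median level gave -0.53 to -0.24. Of the 6 measured membrane proteins 5 were negative and 2, Lamp1 and Mcoln1, were lower without overlap (13.4% of all genes). The median of the 6 was -0.25. Without uninduced replicate 1 only Lamp1 of the 6 passed, where 4.77% of all genes passed as lower.

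The soluble hydrolases and other luminal proteins were nearly all negative, 12 of 13, with a median of -0.68. In 9 of them every induced array was below every uninduced array, against 13.4% of all genes. Grn encodes progranulin, which is delivered to lysosomes and cut there into granulins. It lies at chr11:102430507-102436809 and gave 5270, 4208 and 4155 in induced and 7319, 11033 and 11006 in uninduced cells, a difference of -1.09 ± 0.23 (SE; 2.12-fold lower, adjusted p = 0.119). Its 2 other bright probe sets gave -1.26 and -1.24. Gaa, the acid alpha-glucosidase that degrades glycogen, gave 1026, 834 and 1018 against 1437, 1925 and 1847. The groups did not overlap for either gene, and the Gaa difference was -0.84 ± 0.19 (SE, adjusted p = 0.132).

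Glb1, the beta-galactosidase whose activity is used as a stain for senescent cells, gave 1123, 1585 and 1444 against 1905, 4990 and 4096. Uninduced replicate 1 was nearer to the induced arrays, and the difference of -1.30 ± 0.38 (SE, adjusted p = 0.183) became -1.71 without it (adjusted p = 0.0225). Asah1, the acid ceramidase, gave 1978, 2244 and 2094 against 2568, 3875 and 3704, with no overlap and a difference of -0.66 ± 0.21 (SE). The remaining enzymes and lipid-binding proteins were negative as well. Lipa, the acid lipase for cholesteryl esters, stood at -0.84, Npc2, which hands cholesterol to NPC1, at -0.68, Smpd1, the acid sphingomyelinase, at -0.68, Naglu, which acts on heparan sulphate, at -0.64, and Hexa, the alpha subunit of beta-hexosaminidase, at -0.53, and none of the 5 overlapped between groups. Neu1, the sialidase, stood at -1.01 ± 0.59 (SE), Psap, the saposin precursor, at -0.55, and Gla, the alpha-galactosidase A, at -0.26, and these 3 overlapped.

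Neu1 shows how much uninduced replicate 1 weighs, with signals of 172, 333 and 365 in induced and 222, 934 and 879.9 in uninduced cells. The first uninduced array was within the induced range and the others were far above it. In 11 of the 13 hydrolases and luminal genes this array was nearer to the induced mean, as in 55.6% of all genes. Without it 8 passed in limma as lower (Gaa, Glb1, Hexa, Asah1, Smpd1, Lipa, Npc2 and Grn, adjusted p from 0.0225 to 0.0487), against 4.77% of all genes. The 1 gene in the other direction was Gusb, the beta-glucuronidase, which gave 3085, 3289 and 3325 in induced and 2883, 1856 and 2052 in uninduced cells. Every induced array was above every uninduced one, with a difference of 0.54 ± 0.21 (SE, adjusted p = 0.259), and of 0.72 without uninduced replicate 1 (adjusted p = 0.0453). The other bright Gusb probe set gave 0.71.

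**Figure D3:**
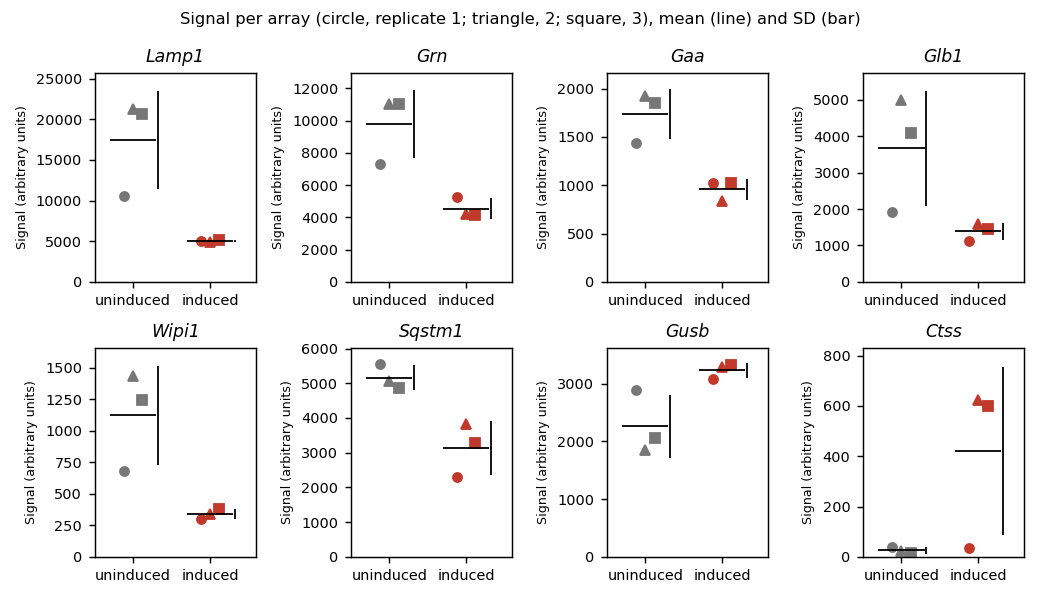
Signals of 8 members on a linear axis from 0, uninduced arrays in grey and induced arrays in red, with the mean as a line and the SD as a bar (n = 3 a group); symbols mark the replicate number. The grey circle of uninduced replicate 1 lies between the groups for Lamp1, Grn, Gaa, Glb1 and Wipi1, at the top of its group for Sqstm1, and Ctss is raised only in the red triangle and square.

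The cathepsins, the proteases of the lysosome, were split in direction. Of the 8, 4 were negative and 4 positive, with a median of -0.16. None was lower without overlap and 1 was higher (13.4% and 10.7% of all genes). Ctsa, the carboxypeptidase that also protects beta-galactosidase and sialidase, gave 1258, 1396 and 1349 in induced and 1392, 3866 and 3616 in uninduced cells. Ctsd, the major aspartic protease, gave 1857, 2602 and 2396 against 2317, 5550 and 5192. Both had uninduced replicate 1 inside the induced range and the other uninduced arrays well above it. The differences were -1.00 ± 0.40 (adjusted p = 0.269) and -0.84 ± 0.37 (SE, adjusted p = 0.304), and without uninduced replicate 1 they were -1.48 and -1.24 (adjusted p = 0.0146 and 0.0332). The cysteine proteases Ctsb and Ctsz stood at -0.52 and -0.40, and Ctsc, which activates granule proteases of blood cells, at 0.08 by its brightest probe set and at -0.45 by another.

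Ctss, a cathepsin of antigen-presenting cells that trims the invariant chain of MHC class II, had the largest positive difference and the least even one. It gave 34.5, 624 and 601 in induced and 38.8, 21.6 and 14.4 in uninduced cells. Induced replicates 2 and 3 were high, and induced replicate 1 was as low as the uninduced arrays, so the groups overlapped. The difference was 2.77 ± 0.99 (SE, adjusted p = 0.233). It was -0.12 in the arrays numbered 1, 4.22 in those numbered 2 and 3 (adjusted p = 0.0316 in those 4 arrays, where 8.12% of all genes passed), and 3.98 without induced replicate 1 (adjusted p = 0.0436, where 0.066% passed). Mpeg1, a macrophage gene, showed the same arrays high, with 9.43, 543 and 464 against 6.8, 9.96 and 17.2. Ctsl gave 59.6, 30.8 and 30.3 against 27.2, 3.39 and 23.9, without overlap but at a level that liver and brain genes also reach, and Ctsh was as low.

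The V-ATPase subunits had small differences in both directions. Atp6v0d1, a subunit of the membrane sector, gave 3354, 4254 and 4256 in induced and 4492, 7193 and 6908 in uninduced cells. Every induced array was below every uninduced one, and the difference was -0.62 ± 0.24 (SE, adjusted p = 0.255; adjusted p = 0.0515 without uninduced replicate 1). Atp6v1a, the catalytic subunit, gave 1867, 2066 and 2154 against 1975, 2432 and 2426, with overlap and a difference of -0.16 ± 0.17 (SE). Its other bright probe set gave 0.61, so its direction depends on the probe set. Atp6v1h, a regulatory subunit, gave 1518, 2573 and 2716 against 1316, 1696 and 1750. Induced replicates 2 and 3 were the highest arrays, and the difference was 0.48 ± 0.27 (SE). Atp6v0a1 gave 93.8, 112 and 109.9 against 199, 97.7 and 116, where uninduced replicate 1 alone was high. Of the 4 subunits 3 were negative, with a median of -0.23 that turned to 0.17 when all probe sets of a gene were averaged.

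Both transcription factors that drive lysosomal genes were negative. Tfeb gave 107, 33.8 and 71.3 in induced and 136, 227 and 132 in uninduced cells. The groups did not overlap, but both varied widely, and the difference was -1.12 ± 0.38 (SE; 2.17-fold lower, adjusted p = 0.221). Tfe3 gave 447, 354 and 404 against 616, 412 and 381. These overlapped, with a difference of -0.19 ± 0.23 (SE) that was 0.01 without uninduced replicate 1. RNA amount says nothing of where the proteins lie in the cell, which is where mTORC1 acts on them.

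Among the autophagy genes the largest negative differences were those of Wipi1, Atg2a and Ulk1, which act early in the pathway. Wipi1, which binds phosphatidylinositol 3-phosphate on the forming membrane, lies at chr11:109573521-109611389 and gave 301, 339 and 378 in induced and 680.3, 1438 and 1249 in uninduced cells. The groups did not overlap, and the difference was -1.62 ± 0.30 (SE; 3.07-fold lower, adjusted p = 0.103), or -1.94 without uninduced replicate 1 (adjusted p = 0.0133). Its other probe sets ranged from -1.66 to 0.16, the only other one at or above the median level giving -1.66. Atg2a, which transfers lipid to the growing membrane with WIPI proteins, gave 159, 128 and 116 against 245, 492 and 270.5. It too did not overlap, with a difference of -1.17 ± 0.29 (SE, adjusted p = 0.145). Ulk1, the kinase that starts autophagy, stood at -0.88, and without uninduced replicate 1 at -1.23 (adjusted p = 0.0197).

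Sqstm1 encodes p62, the receptor that brings ubiquitinated cargo to the autophagosome. It gave 2293, 3832 and 3267 in induced and 5560, 5058 and 4875 in uninduced cells. Here uninduced replicate 1 was the highest array, unlike in the hydrolases, and the difference of -0.75 ± 0.23 (SE, adjusted p = 0.189) was -1.27 between the arrays numbered 1 and -0.49 between those numbered 2 and 3. Map1lc3b, the LC3 protein that is coupled to the autophagosome membrane, gave 5767, 5365 and 5691 against 6669, 9415 and 8911. The groups did not overlap, the difference was -0.55 ± 0.19 (SE), and its other bright probe sets gave -1.01 to -0.68. It passed without uninduced replicate 1, at -0.71 (adjusted p = 0.0438).

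By their brightest probe sets the other autophagy genes stood nearer to 0 or were dim. The conjugation genes Atg5 and Atg7 stood at 0.14 and -0.11 (0.05 for Atg7 after median centring and 0.02 after quantile normalization). The 2 other bright Atg5 probe sets gave 0.59 and 0.46, and the other bright Atg7 probe set gave 0.29. Becn1 of the lipid kinase complex stood at 0.13, with its 3 other bright probe sets from -0.34 to 0.22. The LC3 relatives Gabarapl1 and Gabarapl2 stood at -0.07 and -0.01 (0.08 and 0.14 after median centring). Map1lc3a was dim and scattered, with 54.5, 78.1 and 75.0 against 149, 11.4 and 42.5. Of the 11 autophagy genes 8 were negative, 6 were lower without overlap (Wipi1, Atg2a, Ulk1, Sqstm1, Map1lc3b and Atg7) and 1, Atg5, was higher without overlap. The shares of all genes were 55.9%, 13.4% and 10.7%. The median of the 11 was -0.11, close to that of all genes, and it was 0.05 after centring each array on its median, where that of all genes was 0.10.

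**Figure D4:**
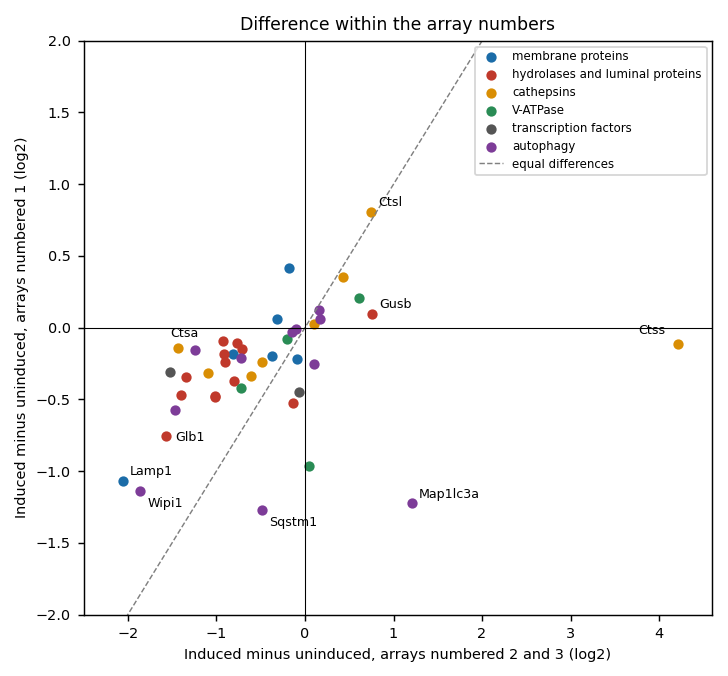
Difference between induced and uninduced cells within the arrays numbered 1 (vertical, 1 array against 1) plotted against that within the arrays numbered 2 and 3 (horizontal, 2 against 2) for the 44 members, in log2 units, with a dashed line for equal differences. Most members lie left of 0 and above the dashed line, as Ctsa does at -1.43 and -0.14, while Sqstm1 lies below it and Ctss far to the right at 4.22.

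Members with and without the E-box in the promoter had medians close to each other. The 14 measured members with the core had a median of -0.47, 12 of them negative, 7 lower without overlap, and Atg5 and Ctsl higher without overlap. The 23 measured members whose window lacks it had a median of -0.55, 19 of them negative and 11 lower without overlap. Among all genes 55.9% were negative, 13.4% lower without overlap and 10.7% higher without overlap. All 7 members with the 8-letter form were negative, with a median of -0.32 and a range from -1.00 (Ctsa) to -0.14 (Cln3). Lamp1 with its 4 copies had the largest negative difference, yet Wipi1 and Grn, next to it in limma's order of p, hold no copy in the window. These counts are descriptions, with no test, and the windows cover only part of a promoter.

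A wider set of 150 genes of the same pathways, of which 141 were measured, lay on the same side with a smaller median. It held 94 negative differences and a median of -0.15, with 32 of the 141 lower and 12 higher without overlap (13.4% and 10.7% of all genes), and none passed the test (limma; 22 lower and 6 higher at an unadjusted p under 0.05). Without uninduced replicate 1 there were 14 lower and 2 higher past the test (4.77% and 3.22% of all genes), and of the genes named next Mitf, Lamtor4, Wdr45, Slc17a5, Tpp1, Atp6ap2, Bnip3 and Gm2a were among the lower. By function, further hydrolases and luminal proteins had the lowest median, -0.34 over 24 genes, followed by V-ATPase subunits at -0.22 over 13, autophagy genes at -0.20 over 34 and mTORC1 and transcription genes at -0.12 over 24. Membrane proteins stood at -0.06 over 21 and genes of sorting to lysosomes at -0.06 over 19, level with all genes. The 6 further cathepsins had a median of 0.38, with a median level (5.16 as log2(signal + 16)) no higher than that of liver and brain genes (5.31).

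The named genes of these lists were taken in order of their p. Mitf, the third factor of the TFEB family, gave 220.2, 150.4 and 172 in induced and 505, 431 and 387 in uninduced cells. Here uninduced replicate 1 was the highest array, no array overlapped, and the difference was -1.22 ± 0.20 (SE; 2.33-fold lower, adjusted p = 0.0897). Slc38a9, the arginine sensor of the lysosomal membrane, stood at -0.67 ± 0.15, and Lamtor4 of the Ragulator complex, which anchors mTORC1 there, at -1.04 ± 0.32 (SE). Among the autophagy genes Wdr45, a relative of WIPI1, stood at -0.76 ± 0.15, and Atg13 and Rb1cc1, the partners of ULK1 in the initiation complex, at -0.64 and -0.58. These 3 had similar values in both sets of arrays, with -0.62, -0.65 and -0.54 in the arrays numbered 1 and -0.83, -0.64 and -0.60 in those numbered 2 and 3. Another bright Atg13 probe set, however, gave 0.19.

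Among the proteases Lgmn, an asparaginyl endopeptidase, stood at -1.40 ± 0.39, Scpep1, a carboxypeptidase, at -1.15 ± 0.26, and Tpp1, a tripeptidyl peptidase, at -0.58. In the opposite direction Ctse, an aspartic protease of endosomes, gave 1354, 2006 and 2249 in induced and 651, 858 and 825 in uninduced cells. All induced arrays were above all uninduced ones, with a difference of 1.23 ± 0.24 (SE, adjusted p = 0.111). Of the transporters Slc29a3, for nucleosides, stood at 0.86 ± 0.18 and was likewise higher in every induced array, while Slc17a5, the sialic acid carrier, stood at -0.98 and Laptm5, a lysosomal protein of blood cells, at -0.74. Atp6v1g1, Atp6ap2 and Tcirg1 of the V-ATPase stood at -0.38, -0.66 and 0.36, and Vps39, Sort1 and Gnptg of the sorting list at -0.28, -0.26 and 0.32. The named cathepsins Ctsf and Ctsw gave at most 49.2 and 27.9 on any array.

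The lowest values of the wider lists lay outside that rule, and these 2 genes were chosen after their values were seen. Bnip3, a mitophagy receptor, gave 971, 1880 and 1500 in induced and 3227, 23830 and 21865 in uninduced cells, a difference of -3.07 ± 0.79 (SE, adjusted p = 0.15; adjusted p = 0.0133 without uninduced replicate 1). Gm2a, the activator protein that presents GM2 ganglioside to beta-hexosaminidase, gave 41.8, 89.7 and 159 against 166, 1226 and 1127. In both genes uninduced replicate 1 was nearer to the induced arrays than to its own group, and the Gm2a difference was -2.64 ± 0.81 (SE, adjusted p = 0.195; adjusted p = 0.0276 without that array).

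**Figure D5:**
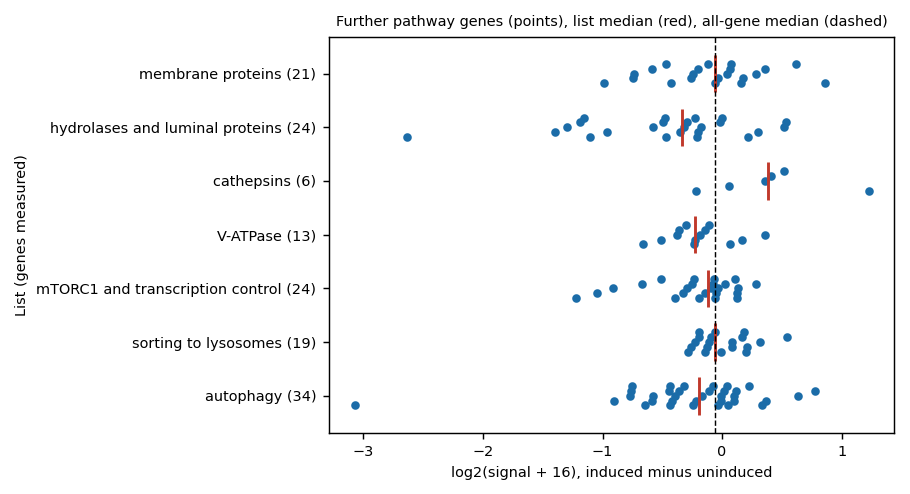
Difference between induced and uninduced cells for the 141 measured genes of 7 wider lists, in log2(signal + 16); each point is a gene, the red bar is the median of its list and the dashed line the median of all genes at -0.06. The hydrolase list lies farthest left with a median of -0.34, and the cathepsin list lies to the right at 0.38.

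Some markers of lysosome-rich blood cells had the same order of arrays, and others did not. The 10 macrophage and monocyte markers had a summed signal from 844 to 1420 in induced cells and of 1860, 2866 and 2749 in uninduced replicates 1, 2 and 3, and 8 of the 10 were negative, with a median of -0.78. Cd14, Mrc1 and Marco were as dim as liver and brain genes in both groups, while Adgre1 gave 112, 286 and 370.1 against 521, 1674 and 1497 and Csf1r gave 123, 117 and 88.9 against 129, 412 and 389. Adgre1 thus showed the order of arrays seen in the hydrolases. In all 4 of the 10 markers were lower without overlap and 1, Mrc1, was higher (0.85). Mpeg1, given above, stood at 2.81, Lyz2 at -1.37 with induced replicate 1 as high as the uninduced arrays, and Fcgr1 at -0.04 with uninduced replicate 1 far above all others (227, 232 and 209 against 809, 87.5 and 155). The 8 neutrophil markers summed to 334, 2025 and 2950 in induced and 1536, 4672 and 3508 in uninduced cells, which overlapped. Most of that sum was Ngp, with 221, 1627 and 2166 against 1125, 3824 and 2848. The median of the 8 was -0.76, with 5 negative and 3 positive. Ltf (-2.27, limma adjusted p = 0.0796), S100a8 (-2.18) and S100a9 (-1.46) were lower without overlap (13.4% of all genes), and 0 were higher. In limma 0 markers of either list passed the test, with 4 lower and 2 higher macrophage and 3 lower neutrophil markers at an unadjusted p under 0.05. Without uninduced replicate 1 Adgre1 and Csf1r (adjusted p = 0.0445 and 0.0176) and the neutrophil gene Ltf (adjusted p = 0.0225) passed as lower. Of the macrophage markers Cd68 is also in the wider lysosome lists. The part of these markers in the lysosomal differences was not tested.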

How the data were processed

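RNA of 6 Ba/F3 cultures, 3 induced and 3 uninduced by the labels' titles, was measured on 6 arrays. The authors deposited signal intensities that are linear, made with Affymetrix Expression Console 1.4.1 per the submitters' processing notes; no source used here names the summary algorithm. Each array's mean without the highest and lowest 2% of values is 500. The logarithm log2(signal + 16) was taken with no added normalization. After removal of 64 control probe sets, 34945 of 45037 had exactly 1 gene symbol in the platform table (932 several, 9160 none). Among these the brightest probe set stood for each of 18193 genes. Differences were tested in R 4.3.3 with limma 3.58.1 (lmFit, eBayes). Two-sided p came from moderated t statistics, which add prior degrees of freedom estimated over all genes to the 4 residual ones. The p-values were adjusted by Benjamini-Hochberg across all genes, with 0.05 as threshold. The script was tested on simulated data. Since the labels speak of a triplicate and not of separate experiments, p-values cover only the spread among these cultures, and precision is limited by how many arrays there were.

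The members and all lists were chosen with earlier results of these data known. Values on every array are given for up to 4 members of each group with the smallest p, and named genes of the wider lists are the 3 with the smallest p of each; any member may be named. Neu1, Gusb and Map1lc3a, the fusion partners and cell type markers were added to those shown by array. Alternatives were the replicate number as a block, arrays centred on their median, quantile normalization, a filter at the 25th percentile or at the median, averaging probe sets or taking the most variable, eBayes with trend and robust, a pseudocount of 1 or 64, 0.01 as threshold, each array left out, and arrays numbered 2 and 3 alone. Promoter windows and gene positions are from RefSeq, GRCm38.p6. Figures used matplotlib 3.10.9.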

Additional observations from a re-analysis of the deposited data

How the results depend on the processing

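Of 18 alternatives 5 leave each difference as it is (the block, both filters, the variance and the threshold). In none of the other 13 did 31 of the 44 members change direction. Ctsh, Ctsl, Ctss and Map1lc3a were not tested with the filter at the median. The main limit is uninduced replicate 1. Leaving out each array in turn, the count of genes past the threshold ranged from 0 to 1453, of members from 0 to 15, of members without overlap from 19 to 30 (lower) and 3 to 6 (higher; the 30 and 6 are without uninduced replicate 1, where 24.0% and 21.3% of all genes did not overlap, against 13.4% and 10.7% on 6 arrays), and the autophagy median from -0.22 to -0.077. The same range ran from -0.34 to 0.21 for Lamp2, -0.022 to 0.21 for Ctsc, -0.32 to 0.012 for Tfe3, -0.22 to 1.08 for Map1lc3a and -0.085 to 0.076 for Gabarapl2. Members past the threshold, 0 in the reported fit, numbered 5 with the filter at the median (Lamp1, Gaa, Grn, Wipi1 and Atg2a; 8.16% of the genes kept), 4 with trended and robust variance (3.02% of genes), 1 with a pseudocount of 64 (Lamp1; 1.4% of genes) and 13 in arrays numbered 2 and 3 alone. The genes past the threshold, 34 in the reported fit, numbered 69 and 742 with filters at the 25th percentile and the median, 19 with the most variable probe set, 550 with trended and robust variance, 255 with a pseudocount of 64 and 1477 in arrays numbered 2 and 3 alone. They numbered 0 in limma with a pseudocount of 1 (2807 at an unadjusted p under 0.05) and at a threshold of 0.01 (3171). The cause of these changes was not tested, beyond the fewer genes or arrays that a setting uses.

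With the replicate number as a block 0 genes passed in limma (3269 at an unadjusted p under 0.05), and 0 members. Same-numbered arrays deviated together with correlations of 0.17, 0.08 and 0.08 over genes. Arrays numbered 1 against the other group's arrays numbered 2 and 3 gave -0.12 to -0.095. Arrays numbered 2 against those numbered 3 gave 0.05 and 0.06. Whether the numbers pair the arrays is not stated in the labels and was not tested.

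The members without overlap were 7 lower after median centring, and 30 lower and 9 higher in arrays numbered 2 and 3 alone, where 32.5% and 26.3% of all genes did not overlap. With fewer arrays groups overlap less often, so these counts cannot be read against 19 and 3. The V-ATPase median was -0.070 after median centring, 0.17 with the mean of probe sets, 0.30 with the most variable one and -0.076 in arrays numbered 2 and 3 alone. The autophagy median was 0.050 after median centring, -0.33 with the filter at the median and -0.69 with the most variable probe set. The median of all genes was 0.098 after median centring and 0.012 after quantile normalization. Directions turned with the scaling for Cln3 (0.021 after median centring and 0.022 after quantile normalization), Atg7 (0.050 and 0.023), Gabarapl1 (0.084 after centring) and Gabarapl2 (0.14 after centring). With the mean of probe sets they turned for Lamp2 (-0.26), Ctsc (-0.29), Atp6v0a1 (0.12), Atp6v1a (0.22), Becn1 (-0.0014) and Gabarapl2 (0.042). With the most variable one they turned for Lamp2 (-0.29), Cln3 (0.031), Ctsc (-0.51), Ctsh (-0.055), Atp6v0a1 (0.73), Atp6v1a (0.61), Atp6v1h (-0.0079) and Gabarapl2 (0.098). In arrays numbered 2 and 3 alone Lamp2 stood at -0.19, Atp6v0a1 at 0.050 and Gabarapl2 at 0.11.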
